A study of Pyrus hybrid rootstock with 24 samples.

Results

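The 150 genes described here had lower RNA levels at the callus formation and cambium differentiation stages of pear graft healing than at the first and last stages sampled, in homografts and in heterografts alike. They were chosen by their measured values. Of the 42812 genes in the deposited files, 26895 had an FPKM (fragments per kilobase of gene, scaled to the mapped fragments of the library) of at least 1 in at least 3 of the 24 libraries, and 699 of these, 2.60%, met every criterion of the rule. The 150 with the largest gap were kept. The gap is the lowest of the 4 condition means at the first and last stages minus the highest of the 4 condition means at the middle stages, on the log2(FPKM + 1) scale, and it had to be above 0. In addition, the means of homografts and heterografts had to lie within 0.5 of each other at each stage, and the first and last stages within 1 of each other. Genes labelled in the heat maps of the study were left out by the rule, but none of these 43 genes met the other criteria. Without the limits on the graft difference and on the first against the last stage, 856 genes, 3.18%, had a gap above 0.

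Homografts joined “Qingzhen D1”, a Pyrus communis × Pyrus bretschneideri hybrid, to itself, and heterografts carried a scion of “QAUP-1” (Pyrus ussuriensis) on the “Qingzhen D1” rootstock. The plantlets were raised in tissue culture and held together with silicon tubing, and the stem at the graft union was collected at 1, 5, 9 and 30 days after grafting (DAG). The study named these days after what it saw at the union: SS for the still separate partners, CF for the formation of callus, CD for the differentiation of cambium, and VC for vascular connection. Heterografts were slower in its sections, with a necrotic layer still present at 5 DAG and callus on both partners at 9 DAG. At 30 DAG their vascular connection was abnormal and gaps were seen. For heterografts the stage names therefore stand for the day and not for a completed step. The 8 conditions are written SSS, SCF, SCD and SVC for homografts and DSS, DCF, DCD and DVC for heterografts, each with 3 biological replicates. No ungrafted stem was analysed here, so levels at the middle stages are relative to the other stages only. RNA of scion and rootstock came from the same piece of stem, and in such bulk samples fewer cells of a type and less RNA per cell cannot be told apart. CF and CD are called the middle stages below, and SS and VC the end stages.

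Graft healing begins as a wound response at the severed surfaces. Cells near the interface then divide and form callus, a mass of little differentiated parenchyma that bridges scion and rootstock. A new cambium differentiates within the callus and forms xylem and phloem that reconnect both partners. The sources used here do not pair the identifiers of the 150 genes with names or functions, so no part in these processes can be given to any of them, and markers of callus, cambium or vascular cells were not checked.

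The deposited values corresponded to 10373751 to 13629999 reads on genes per library, with a median of 11827452, and 23597 to 24995 genes per library had an FPKM of at least 1. No pair of libraries held identical values. SVC replicate 2 stood apart from the other libraries of the end stages. Each gene was centred on its own mean over the 24 libraries, and the median of the 150 genes was then 0.08 in SVC replicate 2 on the log2(FPKM + 1) scale, against 0.18 to 0.37 in the other 11 libraries of SS and VC. Only 32 of the 150 genes were above their SVC mean in it. Its 12127623 reads and 24425 genes with an FPKM of at least 1 lay within the range of the others. Without this library 701 genes passed the rule, and 136 of the 150 were among them.

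Across libraries the 150 genes separated the middle from the end stages. The centred median was between −0.36 and −0.16 in all 12 libraries of CF and CD and between 0.08 and 0.37 in all 12 libraries of SS and VC, so these medians did not overlap. The same median over all 26895 genes stayed between −0.12 and 0.08. The 150 genes held 0.376% to 0.501% of the summed FPKM in libraries of the end stages and 0.266% to 0.316% in those of the middle stages. Since the stages were used to choose the genes, these values are a description with no test.

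**Figure D1:**
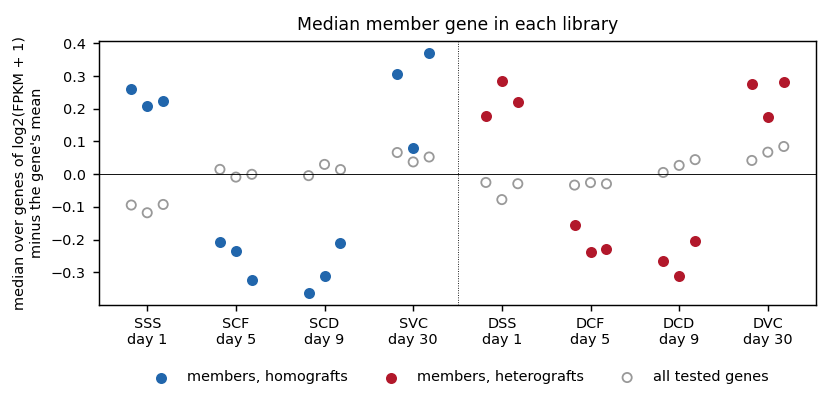
Each point is 1 library and shows the median over the 150 chosen genes (members; filled, blue for homografts and red for heterografts) or over all 26895 tested genes (open grey circles) of log2(FPKM + 1) centred on each gene's mean over 24 libraries, by condition. All 12 SS and VC libraries lie above all 12 CF and CD libraries for the chosen genes, and SVC replicate 2, at 0.08, is the lowest of the end stages.

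In homografts the median FPKM of the 150 genes was 11.8 at SSS, 8.36 at SCF, 7.77 at SCD and 12.1 at SVC. In heterografts it was 12.9 at DSS, 8.39 at DCF, 8.47 at DCD and 12.5 at DVC. The levels at both ends of the series were thus close to each other in each graft type, which the rule in part required. Levels at both middle stages were also close to each other. On the log2(FPKM + 1) scale the median change from SSS to SCF was −0.45, against 0.10 over all tested genes, and from SCD to SVC it was 0.55, against 0.04. In heterografts the median change from DSS to DCF was −0.43, against 0.01 over all tested genes, and from DCD to DVC it was 0.48, against 0.03. Between CF and CD the median change was −0.03 in each graft type, against 0.01 in homografts and 0.06 in heterografts over all tested genes. Without SVC replicate 2 the median change from SCD to SVC was 0.64.

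**Figure D2:**
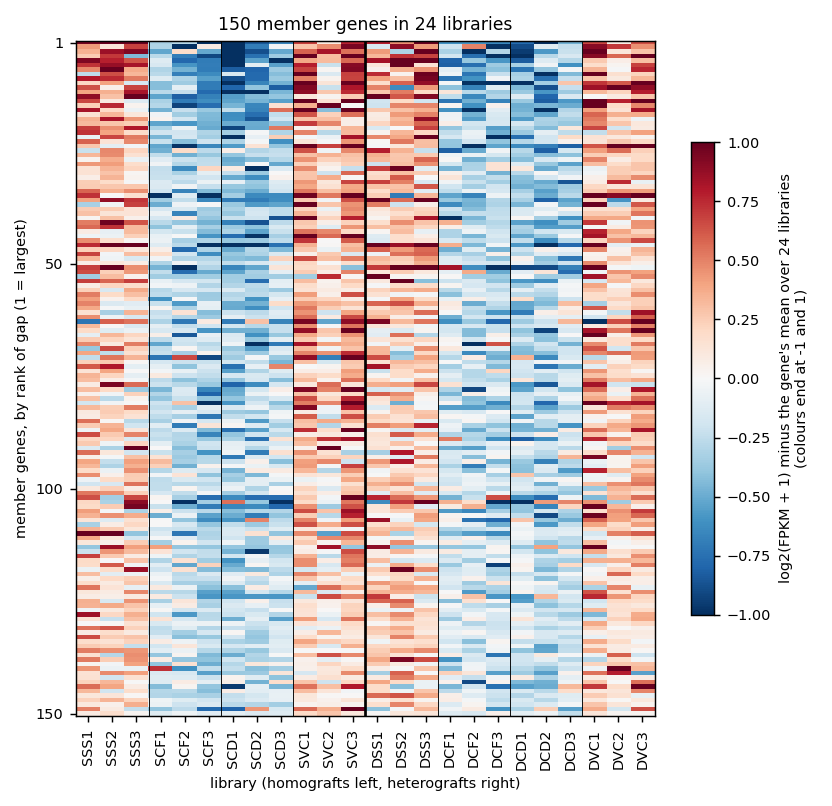
Rows are the 150 chosen genes in order of gap and columns are the 24 libraries grouped by condition. Colour gives log2(FPKM + 1) minus the mean of the gene over the 24 libraries, with blue below and red above it, and the columns of CF and CD are lower than those of SS and VC, with median values between −0.36 and −0.16 against 0.08 to 0.37.

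The difference between the mean of the middle stages and the mean of the end stages had a median of −0.49 on the log2(FPKM + 1) scale and ranged from −1.47 to −0.21. It had a median of −0.51 in homografts, −0.55 without SVC replicate 2, and −0.48 in heterografts, and it was larger in size in heterografts for 53 of the 150 genes. Expressed as mean FPKM, the level at the middle stages was 66.0% of that at the end stages at the median, with quartiles of 51.4% and 73.4%. It was below 50% in 35 genes, below 60% in 56 and above 80% in 9. Most of the genes therefore kept more than 50% of their level at the middle stages. For 15 genes fewer than 3 libraries of the middle stages reached an FPKM of 1, and most of these were among the 35. They passed the filter on low values through the end stages, so their low percentages are in part fixed by the choice. The gap was smaller than the difference between middle and end stages, with a median of 0.20, quartiles of 0.16 and 0.28, and a range from 0.14 to 1.01. It exceeded 0.5 in 11 genes and 0.2 in 79.

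At the limit of the rule the values did not break. The last gene inside had a gap of 0.136485, with means of 4.01, 3.83, 3.80 and 4.11 at SSS, SCF, SCD and SVC and of 4.002, 3.84, 3.79 and 3.98 at DSS, DCF, DCD and DVC. The first gene outside had a gap of 0.135607, with means of 1.54, 0.92, 1.32 and 1.58 in homografts and 2.04, 0.99, 1.24 and 1.45 in heterografts. The second of these genes had the larger difference between middle and end stages, −0.54 against −0.21, because the gap compares the closest pair of conditions and not the averages.

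The genes covered a wide range of expression. Mean FPKM at the end stages ranged from 0.645 to 763 with a median of 12.2, and 41 genes were below 5, 102 between 5 and 100, and 7 above 100. At the middle stages the median FPKM was 8.21 and the range 0.0466 to 544. An FPKM of at least 1 was found in every library for 117 genes. For 15 genes fewer than 3 libraries of the middle stages reached an FPKM of 1, and for 8 of them none did, so these genes passed the filter on low values through the end stages. A mean of fewer than 20 reads per library was found for 17 genes, and 12 had no read in at least 1 library.

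Pbr036168.1 had the largest gap, 1.01, and a short coding length of 327 bp. Its FPKM was 573, 719 and 701 in the 3 replicates of SSS, 234, 241 and 142 in SCF, 104, 162 and 185 in SCD, and 473, 311 and 500 in SVC. In heterografts it was 502, 402 and 652 in DSS, 192, 192 and 186 in DCF, 171, 136 and 209 in DCD, and 464, 308 and 457 in DVC. Each of the 12 libraries of the end stages was above each of the 12 of the middle stages, in which the gene stood at 35.5% of its level at the end stages. As mean ± SD (n = 3), FPKM was 664 ± 79.5 at SSS, 206 ± 55.2 at SCF, 150.5 ± 41.6 at SCD and 428 ± 102 at SVC. The corresponding values were 519 ± 126 at DSS, 190.2 ± 3.47 at DCF, 172 ± 36.5 at DCD and 409.8 ± 88.5 at DVC. The means of DCF and DCD differed by less than the SD of DCD, and those of SCF and SCD by about the SD of SCF. The gene had 465 to 2783 reads per library.

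Pbr037733.1, second by gap at 0.81, was measured with far fewer reads. Its coding length was 189 bp and it had 1 to 16 reads per library, in total 137 at the end stages and 59 at the middle stages. FPKM was 4.65, 3.57 and 5.74 in SSS, 2.40, 0.925 and 3.45 in SCF, 0.388, 1.60 and 3.10 in SCD, and 4.11, 4.80 and 7.10 in SVC. In heterografts FPKM was 2.79, 6.82 and 4.63 in DSS, 2.64, 4.93 and 0.438 in DCF, 1.26, 2.86 and 2.55 in DCD, and 6.87, 5.85 and 4.75 in DVC. The groups overlapped, since 4 libraries of the middle stages were above the lowest library of the end stages, DSS replicate 1. The gap was between 0.24 and 0.83 when any 1 library was left out, and 0.13 without replicate 3 of every condition.

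**Figure D3:**
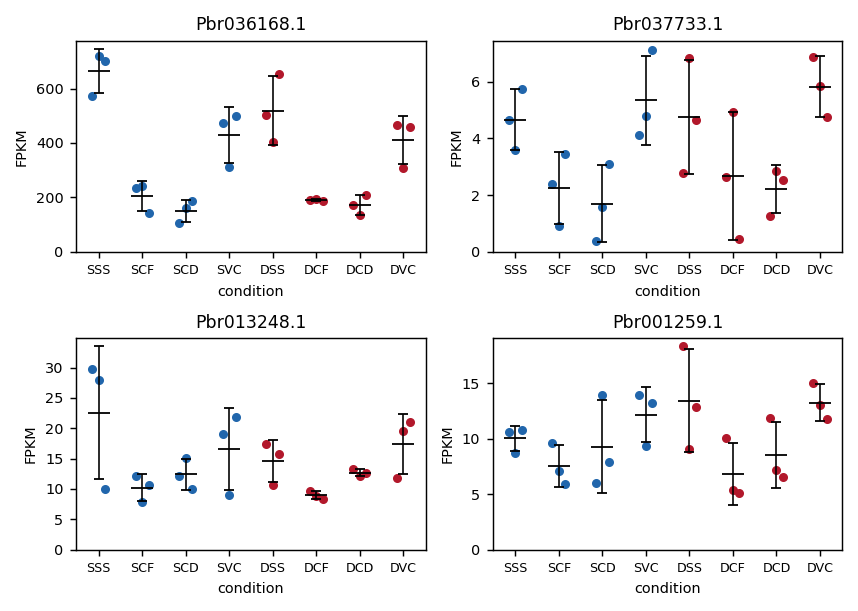
FPKM of 4 genes in each of the 24 libraries (points, blue for homografts and red for heterografts) with the mean and SD of each condition (long bar and whiskers, n = 3), on linear axes that start at 0. Pbr036168.1 shows no overlap of CF and CD with SS and VC, while libraries of both kinds overlap for Pbr037733.1, Pbr013248.1 and Pbr001259.1.

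The genes ranked 3, 4 and 5 by gap had levels between these. The gene ranked 3 had FPKM from 11.6 to 32.4 with a median of 22.2 over the 12 libraries of the end stages, and from 6.15 to 16.7 with a median of 9.92 over those of the middle stages. The gene ranked 4 had FPKM from 11.4 to 43.7 with a median of 26.3, and from 4.53 to 14.1 with a median of 9.26. The gene ranked 5 had FPKM from 28.3 to 58.2 with a median of 41.5, and from 12.6 to 24.7 with a median of 17.0, and its libraries did not overlap. Their gaps were 0.69, 0.65 and 0.62, and the middle stages stood at 43.5%, 36.0% and 42.0% of the end stages.

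Genes at other extremes showed what a gap above 0 can mean at single libraries. The gene with the highest level, ranked 128, had FPKM from 466 to 1145 (median 746) at the end stages and from 428 to 624 (median 551) at the middle stages. Its condition means were separated, but 11 of the 12 libraries of the middle stages were above the lowest library of the end stages. The gene with the lowest relative level at the middle stages, ranked 53, stood at 7.06% of its end stages. This value rested on 27 reads at the end stages and 2 at the middle stages, and the gene was at 0 in 10 libraries of the middle stages and 2 of the end stages. The gene ranked 150 had FPKM from 14.2 to 17.3 (median 15.4) at the end stages and from 11.7 to 14.7 (median 13.0) at the middle stages, which was 85.3% of the end stages.

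Complete separation of libraries, with all 12 of SS and VC above all 12 of CF and CD, was found in 18 of the 150 genes. Over all tested genes it was found in 33, or 0.123%, and nothing can be read from this share because the same contrast chose the genes. Of the 18 genes, 7 were among the 20 largest gaps, and the lowest ranked 148. Their FPKM at the end stages ranged from 3.56 to 505 and their middle stages stood at 24.8% to 82.6% of the end stages, with a median of 66.4%. The separated genes thus included weakly expressed ones and ones with a shallow minimum. Over the 150 genes, the median number of reversed pairs was 9 of the 144 pairs formed by 1 library of each kind.

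The lowest of the 8 conditions was SCD in 53 genes, DCD in 35, SCF in 33 and DCF in 29. The minimum thus lay at CD in 88 genes and at CF in 62. The highest condition was DVC in 41 genes, SVC in 40, DSS in 38 and SSS in 31. VC was above SS in 82 genes, with a median difference of 0.02 (range −0.85 to 1.00) on the log2(FPKM + 1) scale, against 0.15 over all tested genes. The ends of the series were within 0.25 of each other in 105 genes and within 0.5 in 134. Beyond 0.5, VC was the higher one in 10 genes and SS in 6. The rule kept the ends within 1 of each other and above both middle stages. Their closeness is thus in part fixed by the choice and was not tested.

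Heterografts had the higher mean in 75 of the 150 genes at SS, in 84 at CF, in 93 at CD and in 68 at VC. At the median, heterografts differed from homografts by −0.0009 in SS, by 0.02 in CF, by 0.05 in CD and by −0.02 in VC. Over all tested genes the median difference was 0.055 in SS, −0.03 in CF, 0.018 in CD and 0.007 in VC. These differences were limited to 0.5 by the rule, so they describe the genes and were not tested.

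The order of CF and CD was not used by the rule and was tested with limma on log2(FPKM + 1) over all 26895 genes. A call needed a log2 fold change of more than 1 in size together with an unadjusted p under 0.05, which are the thresholds of the study's methods. None of the 150 genes was called in homografts, where 0.372% of all tested genes were called as higher at CD and 0.234% as lower. None was called in heterografts, where 1.58% were called as higher and 1.01% as lower. The rule holds both stages below a common bound and sets no direct limit on their distance from each other. The gap is measured from the highest of the middle means, however, so the values tested here also took part in the choice. A gene that rises to a high level at either stage has a smaller gap and ranks lower. The sizes of change and the counts, here and below, are thus in part shaped by the choice, and nothing is read from them. Values on this scale also cannot fall below 0, so a gene with means below 1 at both middle stages could not be called. The absence of calls is thus fixed in advance for such genes. Log2 fold changes ranged from −0.84 to 0.44 in homografts and from −0.81 to 0.51 in heterografts. By limma with voom weights on reads recovered from the FPKM values, 1 of the 150 genes was called as lower at SCD (rank 46; 0.587% of all genes with reads) and 0 as higher (0.851%). In heterografts 1 was called as higher at DCD (rank 117, FPKM 1.25 at the end stages; 2.97%) and 0 as lower (1.57%).

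With the unadjusted p below 0.05 at any fold change, 4 of the 150 genes were lower at SCD than at SCF (2.29% of all tested genes) and 0 were higher (2.91%). In heterografts 7 were lower at DCD than at DCF (6.93%) and 0 were higher (13.1%). After Benjamini-Hochberg adjustment over all tested genes in limma, 0 of the 150 passed 0.05 in either graft type. Over all tested genes the adjusted p passed for 0 in homografts, and for 1.22% as higher and 1.44% as lower in heterografts. With a change of more than 1 in size as well, these shares were 0.461% and 0.543%. Only the gene ranked 46 was among the 4 and among the 7. Its log2 fold change was −0.84 in homografts, with an SE of 0.32 and an adjusted p of 0.853 in limma, and −0.81 in heterografts, with an SE of 0.32 and an adjusted p of 0.164. The gene ranked 26 had the lowest adjusted p in limma, 0.0627, where the change in heterografts was −0.30 (SE 0.085). It passed 0.05 under 3 of the alternatives, with an adjusted p of 0.04996 when only genes with an FPKM of at least 5 were tested, 0.0392 after upper-quartile scaling and 0.0399 without DCD replicate 1.

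Without regard to the test, 60 of the 150 genes had a log2 fold change above 0 from SCF to SCD, or 40%, against 53.7% of all tested genes. From DCF to DCD there were 63, or 42%, against 61.4%. The sign was the same in both graft types for 84 genes, 29 of them higher at CD and 55 lower, and it was not the same for 66. No share over all tested genes is given for this count, so nothing is read from it.

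**Figure D4:**
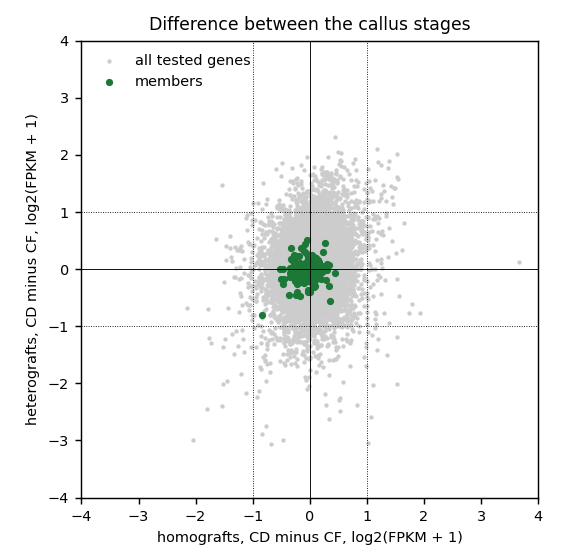
Log2 fold change of CD against CF in heterografts (y axis) against homografts (x axis), on the log2(FPKM + 1) scale, for the 150 chosen genes (green) over all 26895 tested genes (grey). The chosen genes lie between −0.84 and 0.44 in homografts and between −0.81 and 0.51 in heterografts, inside the absolute log2 fold change of 1 needed for a call.

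The difference of the CD against CF change between graft types had an adjusted p below 0.05 in limma for 0 of the 150 genes and for 11, or 0.0409%, of all tested genes. The latter count was 1 with replicate number as a block, and 0 to 293 when 1 library was left out, with the 293 obtained without DCD replicate 1, while that over the 150 genes was 0 in each case. At an unadjusted p below 0.05 it passed for 1 gene, rank 26, and for 10.6% of all tested genes. In this gene the change in heterografts was 0.38 lower than in homografts (limma adjusted p = 0.251). The limit of 0.5 on the graft difference at CF and at CD bounds this difference, so the low count is in part fixed by the rule.

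Pbr013248.1 and Pbr001259.1 had the largest mean log2 fold change from CF to CD among the 150 genes, although neither was called. Pbr013248.1 had FPKM 12.2, 7.76 and 10.7 in SCF and 12.1, 15.1 and 10.03 in SCD, with 29.8, 27.9 and 9.996 in SSS and 19.1, 8.95 and 21.8 in SVC. In heterografts it had FPKM 9.67, 8.87 and 8.29 in DCF and 13.3, 12.2 and 12.6 in DCD, with 17.3, 10.6 and 15.8 in DSS and 11.8, 19.6 and 21.0 in DVC. All 3 DCD libraries were above all 3 DCF libraries, and at least 1 library of each end condition fell within the range of the middle stages. The log2 fold change was 0.26 (SE 0.33, limma adjusted p = 1) in homografts and 0.46 (SE 0.33, limma adjusted p = 0.48) in heterografts. Without 1 library the change in homografts ranged from 0.09 (without SCF replicate 2) to 0.39. Its gap of 0.16 was 0.03 when DSS replicate 1 was left out, and was 0.10 without replicate 3 and 0.28 without replicate 2 of that condition. It was 0.05 without SVC replicate 3, 0.07 without SCD replicate 3 and −0.04 without replicate 3 of every condition.

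Pbr001259.1 had FPKM 9.61, 7.06 and 5.87 in SCF and 6.03, 14.0 and 7.86 in SCD, with 10.6, 8.68 and 10.8 in SSS and 13.9, 9.32 and 13.2 in SVC. In heterografts it had FPKM 10.03, 5.35 and 5.11 in DCF and 11.9, 7.14 and 6.51 in DCD, with 18.3, 9.08 and 12.9 in DSS and 14.99, 13.0 and 11.7 in DVC. CF and CD overlapped in both graft types, and SCD replicate 2 was above every SSS library. The log2 fold change was 0.22 (SE 0.29, limma adjusted p = 1) in homografts and 0.29 (SE 0.29, limma adjusted p = 0.627) in heterografts. The gap of 0.17 was −0.07 without SCD replicate 1, so the gene did not meet the rule without that library. The change in heterografts ranged from 0.05 (without DCD replicate 1) to 0.57 (without DCF replicate 1) when 1 library was left out.

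Because the minimum itself chose the genes, the rule was also applied to 16 libraries, with 1 replicate of each condition left out, and the 150 genes chosen each time were read in the 8 libraries that had no part in the choice. With replicate 1 left out, 148 of the 150 genes had a lower mean at the middle stages than at the end stages in the left-out libraries, against 50.5% of all tested genes. With replicate 2 left out there were 140, against 46.5%, and with replicate 3 left out there were 138, against 51.0%. The direction thus recurred in the left-out libraries for most of the genes chosen each time, which were only in part the 150 described above. The rule was set with earlier results of all 24 libraries known, and this count was added after the data were seen. It is therefore a description with no test. The median difference between middle and end stages was −0.39, −0.35 and −0.37 in the left-out libraries, smaller in size than the −0.51, −0.52 and −0.45 in the libraries used to choose.

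The full pattern recurred in fewer genes. A gap above 0 in the left-out libraries, where each condition is 1 library, was found in 46 of the 150 genes for replicate 1 (2.03% of all tested genes), in 42 for replicate 2 (2.12%) and in 56 for replicate 3 (3.29%). The median gap was −0.13, −0.21 and −0.06 in the left-out libraries, against −0.58, −0.63 and −0.55 over all tested genes. The choice itself also moved. With replicate 1, 2 or 3 left out, 75, 73 and 72 of the 150 genes chosen were among the 150 chosen from all libraries.

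**Figure D5:**
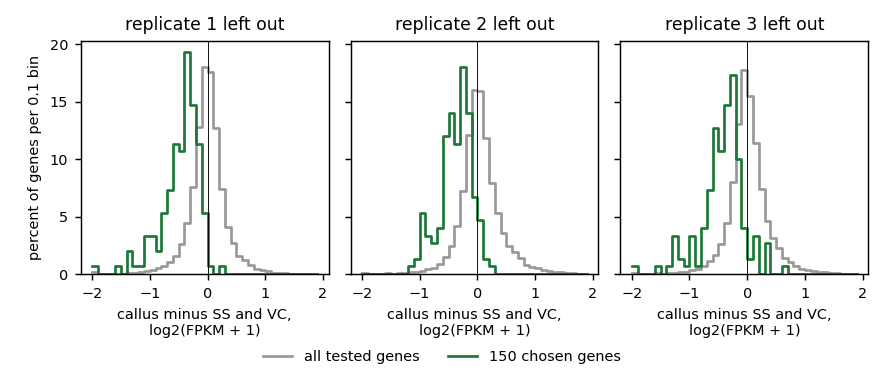
Distribution of the difference between the middle stages and the end stages, on the log2(FPKM + 1) scale, in the 8 libraries of replicate 1, 2 or 3, for 150 genes chosen from the other 16 libraries (green) and for all tested genes (grey), as the percent of genes in bins of 0.1. Medians of the chosen genes are −0.39, −0.35 and −0.37, against values near 0 over all tested genes.

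Variation within conditions was not used by the rule. After subtraction of the condition mean, the mean pairwise correlation between the 150 genes over 24 libraries was 0.095, against 0.0069 over all tested genes. For 150 genes chosen by the mirrored rule, with a peak at CF and CD in place of a minimum, it was 0.371. The genes share libraries and depth, so these correlations are a description. The SD between replicates, pooled over conditions, had a median of 0.24 for the 150 genes, 0.21 for all tested genes and 0.35 for the mirrored rule. The 150 genes with a minimum therefore varied together within a condition less than the 150 with a peak did, and they varied less.

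Genes with the opposite shape were more numerous, and the 150 with the largest mirrored gap changed more. The mirrored rule was met by 1068 genes, 3.97% of those tested, against 699 for the minimum. The difference of the middle from the end stages had a median of 0.84 (range 0.51 to 1.71) in the 150 with the largest mirrored gap, against −0.49 in the genes with a minimum. The limit of 150 kept a smaller part of the 1068 genes than of the 699, so these medians come from unlike cuts. In length and reads the 150 genes were close to all tested genes. Their coding length had a median of 1115 bp (range 189 to 3951), against 1101 bp over all tested genes and 1244 bp for the mirrored rule, and 70 were shorter than the median of all tested genes. Their mean reads per library had a median of 135, against 144 over all tested genes.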

How the data were processed

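Total RNA of the stem at the graft union was sequenced as paired-end libraries. Per the methods, adapters were removed with Cutadapt, HISAT2 placed the reads on scaffolds of Pyrus bretschneideri, and HTSeq gave a count for each gene. The authors deposited FPKM made from these counts for each gene and library, and FPKM of a short or weakly expressed gene rests on few reads. Libraries were grouped by their titles. The description of the series gives scion and rootstock of the heterografts in the opposite order to the titles, which leaves the groups unchanged.

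The members and lists were chosen with earlier results of these data known. FPKM values were taken as log2(FPKM + 1). Fold changes on this scale understate the change of low genes. CD against CF was tested with limma 3.58.1 in R 4.3.3 (two-sided, mean-variance trend, 1 mean per condition, all 24 libraries, 16 residual and 3.549 prior degrees of freedom), with Benjamini-Hochberg adjustment over 26895 genes. The exact permutation test of 3 against 3 libraries cannot go below p = 0.1 and was not used. Whole reads could be calculated back from FPKM to within 0.02 reads for all 32966 genes that were above 0 in 4 or more libraries. For 195 genes with high values, 2 of them members, this was done with lengths held to multiples of 3. Among the other genes with a mean above 100 reads, 100% of 15375 lengths were multiples of 3 after rounding to whole bp (largest distance 0.392 bp), so they are called coding lengths. They also entered limma with voom weights for 26894 genes. The programs were tested on simulated data. Named are the 2 genes with the largest gap and the 2 with the highest mean log2 fold change from CF to CD, since none was called. All other members are given by rank, count and range, because the sources used here hold no gene names for them, and no sequence is shown. Alternatives were pseudocount, low-value filter, upper-quartile scaling, limits of the rule, medians, a replicate block, voom and leaving out replicates. The count of genes with a lower mean at the middle stages in left-out libraries, and the values without SVC replicate 2, were added after the data were seen.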

Additional observations from a re-analysis of the deposited data

How the results depend on the processing

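Between 570 and 789 genes passed the rule under the other pseudocount, filters, scaling and summary by medians, and between 466 and 804 under other limits. Leaving out libraries gave 476 to 745 genes, and kept 105 to 148 of the 150 members within the rule and 72 to 139 among the 150 largest gaps. With a graft difference below 0.25, 66 members still passed and the same number stayed among the 150 largest gaps. With medians of 3 libraries 84 stayed. The median difference between middle and end stages was −0.52 to −0.48 without any 1 library. Over these settings the gap of Pbr001259.1 ranged from −0.109 to 0.258, below 0 without SCD replicate 1 (−0.069) and without replicate 1, and that of Pbr013248.1 from −0.041 to 0.279, below 0 without replicate 3.

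For CD against CF, 1 member was called in homografts with a pseudocount of 0.1 and with voom, and 1 in heterografts with voom. Leaving out 1 library gave 0 to 1 member in each graft type: the gene ranked 46 was called without SCF replicate 3, SCD replicate 3 or DCF replicate 2. The change of Pbr037733.1 in heterografts was 0.17 with a pseudocount of 0.1 and 0.12 with voom, and ranged from −0.57 to 0.46 without 1 library, and in homografts from −0.70 to 0.083. The change of Pbr001259.1 in homografts ranged from −0.085 to 0.46 and in heterografts from 0.054 to 0.57, and that of Pbr013248.1 in homografts from 0.093 to 0.39. Over all tested genes 163 were called in homografts, against 391 with a pseudocount of 0.1, 387 with voom and 103 with an FPKM of at least 5, and 696 in heterografts, against 1287, 1220 with voom and 1261 without DCD replicate 1. With replicate number as a block, 0 members were called in either graft type. The number did not pair CF with CD, as same-numbered libraries had correlations of deviations between −0.121 and 0.063. Between SCD and DCD they were 0.174, 0.134 and 0.178, all above 0.1, and between SCF and DCF −0.082 to −0.026. The difference between graft types passed for 11 of all tested genes without the block, 1 with it and 0 to 293 without 1 library, with 0 members in each case. Depth limits the 17 members with fewer than 20 reads per library.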
